A study of Rattus norvegicus with 19 samples.

Results

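The genes described here encode the proteins that build, cut and signal through the extracellular matrix, and they are the transcripts usually read as markers of kidney fibrosis. Members were chosen by name: 38 genes were listed, and every probe of the array whose gene name was on the list and that was not a control spot was taken. Of the 38 genes, 35 had at least 1 such probe (52 probes in all), and 33 passed the filter on dim signal and were tested among 24217 genes. They comprised 12 of 15 listed fibrillar and interstitial matrix genes, 9 of 11 basement membrane genes, all 4 genes of matrix turnover, and all 8 genes of TGF-beta signal and mesenchymal cells. Col6a1, Col4a2 and Lamb1 had no probe of that name and were not analysed here. Lum was not well above background on any of the 19 arrays, and Postn was on only 1.

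In fibrosis, transforming growth factor beta (TGF-beta) is released from a latent complex, binds the receptor kinases Tgfbr1 and Tgfbr2, and through SMAD proteins raises collagen and fibronectin transcription in fibroblasts and pericytes. The basement membrane of the glomerulus is a different matrix: a sheet of type IV collagen, laminin, nidogen and proteoglycans. Its mature collagen network is a trimer of alpha 3, alpha 4 and alpha 5 chains secreted by podocytes. Metalloproteinases such as Mmp2 and Mmp14 cut matrix proteins, and the tissue inhibitors Timp2 and Timp3 restrain them.

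Each of the 19 rats, all male and of strain Crl:CD (SD), gave renal cortex RNA for its own Agilent array, read in 1 colour. The 5 Sham rats received vehicle intravenously and normal feed. The 7 DKD rats were made diabetic 7 days before grouping with 65 mg/kg of streptozotocin, which destroys pancreatic beta cells, and then had normal feed. The 7 DKD+enarodustat rats were treated likewise but fed 0.01% (w/w) enarodustat, which stabilises hypoxia-inducible factor by blocking HIF prolyl hydroxylase. From 19 injected rats the diabetic groups were chosen to match in body weight and glycaemia, and tissue was collected on day 14 after grouping.

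Levels are given as log2 of the processed signal minus the 75th percentile of the same array, so that 0 marks a spot as bright as that percentile; they compare 1 gene between rats and not genes with each other. There were 3 slides, and rats of every group were on each. Position within a slide was not balanced: row 1 held the 5 Sham and 5 of the DKD arrays, and row 2 held the 7 DKD+enarodustat arrays and DKD replicates 2 and 4. Between 54.4% and 67.3% of probes were well above background on an array. Slc34a1, Aqp1 and Slc13a3, markers of the proximal tubule that makes up much of the cortex, had means above 0 in every group (6.23, 6.75 and 6.14 in Sham).

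DKD was set against Sham to find the changes that came with diabetes. Most of these genes did not pass the test: 6 of 33 passed the threshold of an adjusted p of 0.05 (limma, Benjamini-Hochberg over all genes tested), 2 higher and 4 lower. Among all genes 17.1% passed, 8.02% higher and 9.07% lower. Decorin and Tgfb2 rose, while the collagen IV chains Col4a3 and Col4a4, the nidogen Nid1 and the inhibitor Timp3 fell. Groups did not overlap for 4 of the 33, against 10.7% of all genes: DKD was higher throughout for 2 (4.85% of all genes) and lower throughout for 2 (5.83%). The median difference over the 33 members was 0.07 on the log2 scale, and over all genes -0.02.

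**Figure D1:**
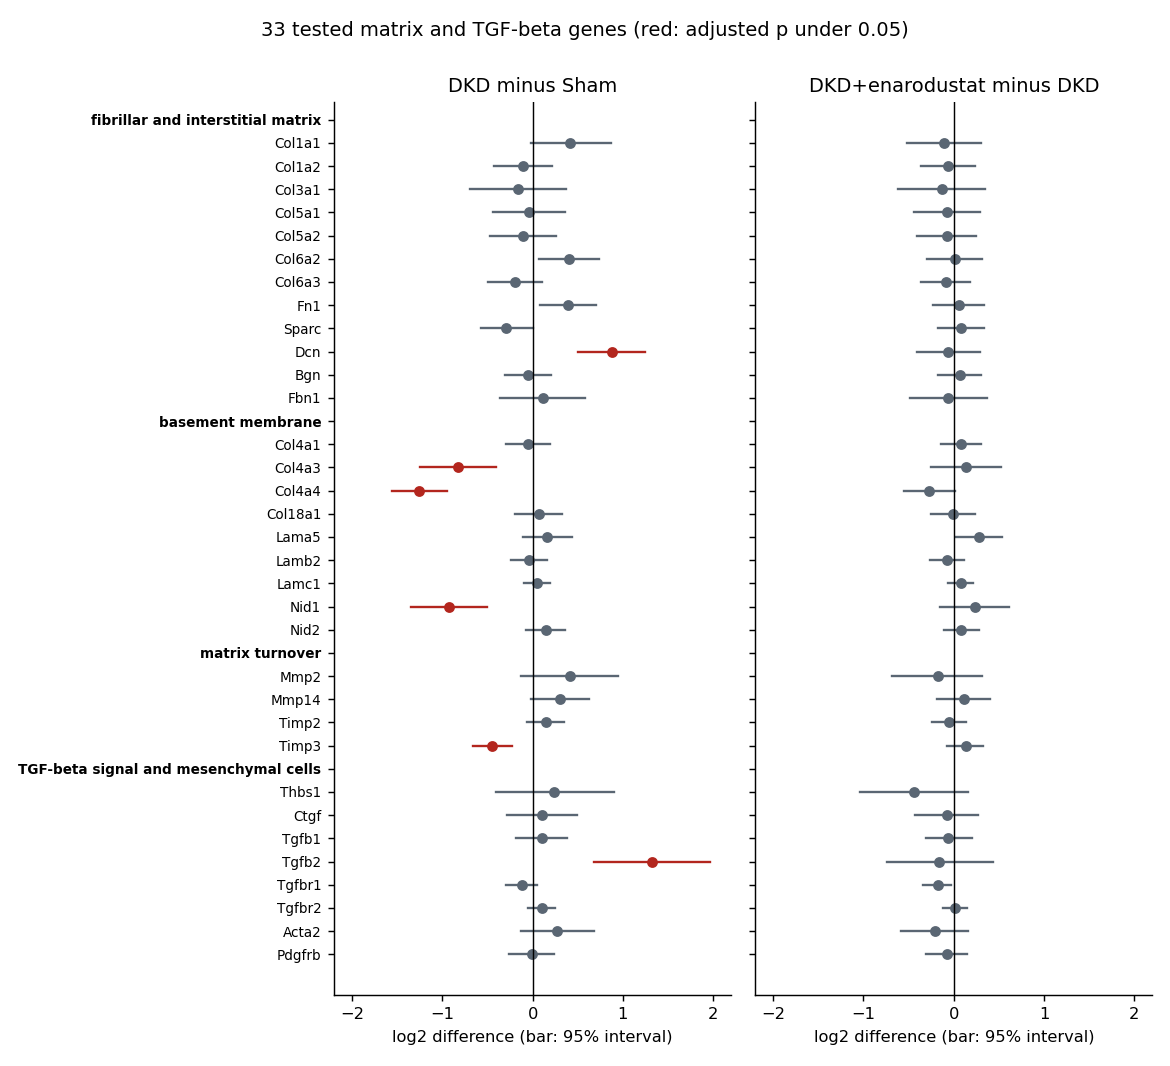
Log2 differences of the 33 tested members in DKD minus Sham (left) and DKD+enarodustat minus DKD (right), with points for the fitted difference and bars for its 95% interval; red marks an adjusted p under 0.05. The 6 red genes on the left are Dcn and Tgfb2 above 0 and Col4a3, Col4a4, Nid1 and Timp3 below it, and no gene on the right is red.

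Where 17.1% of all genes passed, only Dcn did among the 12 fibrillar and interstitial genes tested. It encodes decorin, a small leucine-rich proteoglycan that coats collagen fibrils and binds TGF-beta. Its level was 0.65, 1.07, 0.84, 1.32 and 0.93 in the 5 Sham rats. In the 7 DKD rats it lay between 1.40 and 2.25 with a median of 1.82, so every DKD rat stood above every Sham rat. The log2 difference was 0.88 ± 0.18 (SE, n = 7 and 5, adjusted p = 0.00255), which is 1.83-fold. It was 1.01 within slide 1, 0.96 within slide 2 and 0.75 within slide 3, and 0.77 (adjusted p = 0.0136) when both DKD arrays of row 2 were left out.

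The decorin signal comes from a single probe on rn4 chromosome 7 (chr7:35037331-35041132, plus strand). That span is longer than the 60 bases of the probe, which therefore crosses an exon junction of the spliced transcript. The measured stretch is printed because the whole rise of Dcn rests on it:
Dcn probe: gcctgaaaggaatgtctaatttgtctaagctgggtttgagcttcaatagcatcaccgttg

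The other 11 fibrillar and interstitial genes did not pass. Their differences ran from -0.29 to 0.42, with 95% intervals between -0.69 and 0.87 and adjusted p-values of 0.0805 to 0.939. Collagen I and III chains, the bulk of scar collagen, are among them: Col1a1 differed by 0.42 (interval -0.02 to 0.87), Col1a2 by -0.11 (-0.43 to 0.21) and Col3a1 by -0.16 (-0.69 to 0.37). The other probe of Col1a1 gave 0.02. Fn1, fibronectin, differed by 0.39 (interval 0.08 to 0.70, adjusted p = 0.0805). Its level was between -0.82 and -0.36 in Sham and between -0.63 and 0.04 in DKD, so the groups overlapped.

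Col6a2, a chain of the beaded-filament collagen VI, stood at the border of the threshold. It differed by 0.40 ± 0.16 (adjusted p = 0.0938) through the brighter of its probes and by 0.66 ± 0.18 (adjusted p = 0.0174) through the other, both above background on all 19 arrays. With the replicate number as a block the brighter probe gave 0.51 (adjusted p = 0.0199). The collagen VI partner Col6a3 differed by -0.19 (interval -0.49 to 0.10). Sparc, a collagen-binding glycoprotein, differed by -0.29 (adjusted p = 0.174), and Bgn, the biglycan gene and closest relative of decorin, by -0.05 (interval -0.30 to 0.20).

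Of the 9 basement membrane genes tested, 3 fell, where 9.07% of all genes fell. They were 3 of the 4 falls among the members. Col4a4, the alpha 4 chain of the mature glomerular collagen, had the smallest adjusted p of the 33 members. Its level was 0.75, 0.66, 0.61, 0.43 and 0.39 in Sham and lay between -1.31 and -0.36 in DKD, with a median of -0.61. All DKD rats stood below all Sham rats. The difference was -1.26 ± 0.14 (SE, n = 7 and 5, adjusted p = 1.26e-05), a 2.39-fold lower signal. Within slides 1, 2 and 3 it was -1.34, -1.39 and -0.99, and it was -1.13 (adjusted p = 3.18e-05) without the DKD arrays of row 2.

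Its trimer partner Col4a3, the alpha 3 chain, fell by 0.83 ± 0.20 on the log2 scale (adjusted p = 0.00751, 1.78-fold lower). Sham levels were -2.10, -2.13, -2.21, -2.49 and -2.55, and DKD levels lay between -3.70 and -2.53 with a median of -3.20. The groups touched: DKD replicate 1, at -2.53, lay just above the lowest Sham rat, and the other 6 DKD rats lay below all Sham rats. The values within slides 1, 2 and 3 were -0.59, -1.10 and -0.64. In the authors' deposited value table the difference was -0.50 (adjusted p = 0.000171).

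Both genes are read from a single probe each, on rn4 chromosome 9 at chr9:81866882-81866941 (minus strand, Col4a4) and chr9:82036908-82036967 (plus strand, Col4a3). The Col4a3 probe sequence is given because the call rests on it:
Col4a3 probe: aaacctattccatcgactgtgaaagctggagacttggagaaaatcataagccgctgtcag

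Col4a3 and Col4a4 are neighbours that are transcribed away from each other. In RefSeq annotation of build GRCr8 their starts lie 413 bases apart on chromosome 9 (91323577 on the minus strand for Col4a4 and 91323990 on the plus strand for Col4a3). The 250 bases before each start are printed because these neighbours fell together; capitals mark CAGAC, the core letters of a SMAD site, read on either strand (GTCTG on the other). The Col4a4 stretch is chr9:91323578-91323827 (minus strand) and the Col4a3 stretch is chr9:91323740-91323989 (plus strand), so they share bases in opposite orientation:
Col4a4 promoter: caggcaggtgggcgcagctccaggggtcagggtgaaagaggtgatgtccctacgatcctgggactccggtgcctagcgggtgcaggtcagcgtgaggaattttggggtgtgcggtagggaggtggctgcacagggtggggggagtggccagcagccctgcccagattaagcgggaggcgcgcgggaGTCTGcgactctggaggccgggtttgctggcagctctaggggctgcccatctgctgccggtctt
Col4a3 promoter: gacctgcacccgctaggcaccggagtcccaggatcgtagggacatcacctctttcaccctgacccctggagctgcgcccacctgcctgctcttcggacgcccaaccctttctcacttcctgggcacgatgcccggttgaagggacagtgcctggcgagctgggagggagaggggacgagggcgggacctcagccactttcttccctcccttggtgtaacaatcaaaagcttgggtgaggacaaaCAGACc

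Each stretch held 1 match of CAGAC, ending 60 bases before the start of Col4a4 and 2 bases before that of Col4a3. Such a match is common: 50.1% of the 33469 RefSeq promoter windows of 300 bases hold the letters on either strand. Those windows add 50 bases after the start to the printed stretch, and over them Col4a4 held 2 matches and Col4a3 held 1. The Col4a4 stretch also held GCGTG (29.7% of all windows), a hypoxia response core, and the Col4a3 stretch held GGGCGG (33.1% of all windows), a GC box. Neither held ACGTG (19.3%), CCAAT (37.5%) or a CArG box (1.64%). Motifs were read on both strands, and matches of different motifs can share bases. Windows were present for 27 of the 38 members, of which 13 held CAGAC.

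Nid1 encodes nidogen 1, which links laminin to collagen IV. It fell by 0.93 ± 0.20 on the log2 scale (adjusted p = 0.00343, 1.90-fold lower). Sham levels were 1.80, 0.82, 1.82, 1.55 and 1.03, a wide spread (SD 0.46), while the 7 DKD levels lay close together between 0.37 and 0.58 (median 0.48, SD 0.08). All DKD rats stood below all Sham rats. Within slides 1, 2 and 3 the difference was -0.93, -1.16 and -0.53, the last with 1 Sham array. A second, dimmer probe, above background on 13 of 19 arrays, gave -1.06 ± 0.44 (adjusted p = 0.117). The nidogen paralogue Nid2 differed by 0.15 (interval -0.07 to 0.36).

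The other 6 basement membrane genes did not pass and had narrow intervals. Their differences ran from -0.05 to 0.16, with 95% intervals between -0.29 and 0.44. Among them were Col4a1, a chain of the widely expressed collagen IV network (-0.05, interval -0.29 to 0.19), and the laminin chains Lamb2 (-0.04, -0.24 to 0.16) and Lamc1 (0.05, -0.10 to 0.19). Lama5, the alpha chain of the mature glomerular laminin, differed by 0.16 (adjusted p = 0.469), and by 0.22 (adjusted p = 0.0284) with the replicate number as a block. Its second probe gave 0.06 (adjusted p = 0.879), and with slide row as a covariate the difference was 0.15 (adjusted p = 0.596). Outside single slides Lama5 passed in 3 of 25 alternative settings. Col18a1, whose product releases endostatin, differed by 0.07 (-0.20 to 0.33).

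Of the podocyte markers, 2 of 10 fell and none rose, where 9.07% of all genes fell. Nphs1 (nephrin), named after its value was seen, fell by 0.44 ± 0.11 on the log2 scale (adjusted p = 0.0128). The bright markers Podxl and Clic5 differed by -0.07 each (adjusted p = 0.801 and 0.740). Over the 10 markers, 3 differences were positive and 7 negative, from -0.67 to 0.18 with a median of -0.07. The summed level of the 10 markers was 4.18 to 4.34 in Sham, 3.76 to 4.20 in DKD and 3.72 to 4.21 in DKD+enarodustat. Their part in the falls of Col4a3 and Col4a4 was not tested, and in RNA of whole cortex fewer cells of a type and less RNA per cell cannot be told apart.

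Where 17.1% of all genes passed, the single gene of the 4 of matrix turnover that did was Timp3. It encodes a metalloproteinase inhibitor that stays bound to the matrix. Sham levels were 3.74, 3.67, 3.55, 3.55 and 3.91, and DKD levels lay between 2.98 and 3.60 with a median of 3.23. Only DKD replicate 6, at 3.60, reached into the Sham range. The gene fell by 0.45 ± 0.10 on the log2 scale (adjusted p = 0.00517), a 1.36-fold lower signal. Within slides 1, 2 and 3 the difference was -0.54, -0.45 and -0.53. With arrays of row 1 alone it was -0.40 and no longer passed (adjusted p = 0.0538).

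All 3 Timp3 probes fell, by 0.45, 0.50 and 0.62 on the log2 scale, each past the threshold. The probe with the largest fall lies at chr7:19679721-19679780 of rn4 (minus strand) and is printed because its standard error is the smallest of these probes:
Timp3 probe: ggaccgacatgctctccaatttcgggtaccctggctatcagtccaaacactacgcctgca
The other genes of this group had positive differences that did not pass: Mmp2, gelatinase A, by 0.41 (interval -0.13 to 0.95), its membrane-bound activator Mmp14 by 0.30 (-0.02 to 0.63), and Timp2 by 0.15 (-0.06 to 0.35).

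Of the 8 genes of TGF-beta signal and mesenchymal cells 1 passed, where 17.1% of all genes did. Tgfb2, the ligand TGF-beta 2, had levels of -2.17, -3.60, -3.63, -3.38 and -2.53 in Sham and between -2.12 and -1.21 in DKD (median -1.87). All DKD rats stood above all Sham rats, although Sham replicate 1 lay only just below the lowest DKD rat. The gene rose by 1.32 ± 0.30 on the log2 scale (adjusted p = 0.00580, 2.49-fold). Within slides 1, 2 and 3 the difference was 0.97, 1.49 and 1.07, and the authors' deposited value table gave 0.78 (adjusted p = 0.00210).

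Tgfb2 had 4 probes, and all 4 rose past the threshold, by 1.32, 1.40, 2.01 and 2.02. Of these, 3 lie within the same stretch of rn4 chromosome 13 and the probe with the rise of 1.40 lies at chr13:102816865-102816924, far from them. Tgfb1, the ligand most studied in fibrosis, differed by 0.10 (interval -0.18 to 0.38), and its receptors Tgfbr1 and Tgfbr2 by -0.12 (-0.29 to 0.05) and 0.10 (-0.05 to 0.25). Ctgf, a matricellular TGF-beta target now named Ccn2, differed by 0.10 (-0.28 to 0.49). Thbs1, a thrombospondin that can activate latent TGF-beta, was dim (above background on 4 of 5 Sham, 5 of 7 DKD and 2 of 7 DKD+enarodustat arrays) and differed by 0.24 (-0.41 to 0.90). Acta2, the smooth muscle actin of myofibroblasts and vessel walls, differed by 0.27 (-0.13 to 0.68), and the pericyte receptor Pdgfrb by -0.01 (-0.26 to 0.24).

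**Figure D2:**
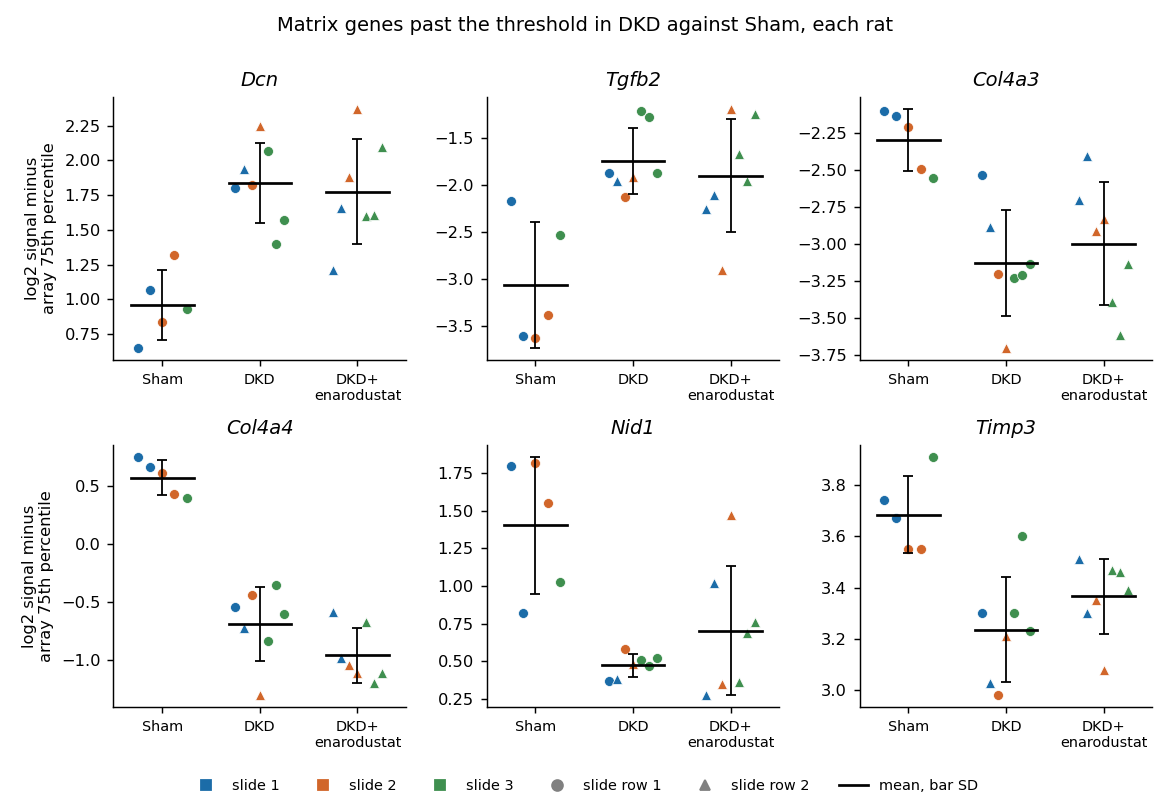
Level of the 6 called genes in each rat (y axis, log2 signal minus the array's 75th percentile) for 5 Sham, 7 DKD and 7 DKD+enarodustat rats, with colour for slide, circles for slide row 1, triangles for row 2, a line for the mean and a bar for the SD. Dcn and Tgfb2 are higher and Col4a4 and Nid1 lower in every DKD rat than in every Sham rat, and Col4a3 and Timp3 each have 1 DKD rat inside the Sham range.

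**Figure D3:**
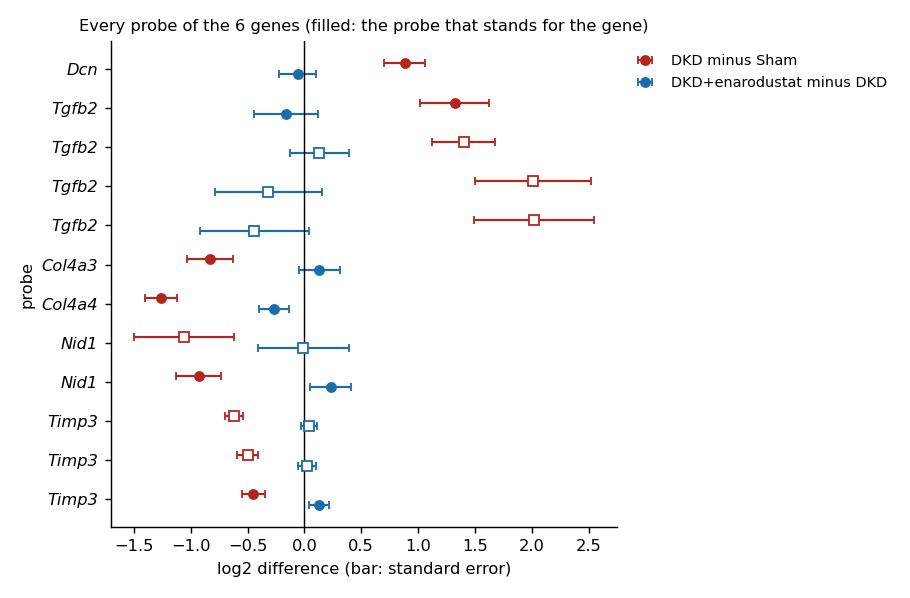
Log2 difference (x axis, bars are standard errors) of every kept probe of the 6 genes, red for DKD minus Sham and blue for DKD+enarodustat minus DKD; filled circles are the probes that stand for the gene and open squares the other probes. The 4 Tgfb2 probes, the 3 Timp3 probes and both Nid1 probes lie on the same side of 0 in DKD minus Sham, while the blue points lie between -0.44 and 0.23.

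Markers of cells that make matrix or enter the cortex were measured in the same arrays. Their counts stand beside 8.02% of all genes higher and 9.07% lower in DKD. Fibroblast and pericyte markers rose in 3 of 11 cases and fell in none: Cygb by 0.79 ± 0.16 (adjusted p = 0.00188), Pdgfra by 0.23 ± 0.07 (adjusted p = 0.0289) and S100a4, named after its value was seen, by 0.44 ± 0.10 (adjusted p = 0.00571). Over the 11 markers, 6 differences were positive and 5 negative, from -0.32 to 0.79 with a median of 0.12. The summed level of these markers, which follows the brightest of them, was 2.85 to 3.16 in Sham. It was 3.29 to 3.68 in DKD and 3.18 to 3.72 in DKD+enarodustat, so both diabetic groups lay above Sham. Of the defining markers, Fap was below the filter. Of 7 smooth muscle markers tested, 6 had positive differences and 1 a negative one, with a median of 0.35. Those that passed were Tagln, up by 1.02 ± 0.24 (adjusted p = 0.00678), and Smtn, down by 0.48 ± 0.12 (adjusted p = 0.0117). No endothelial marker of 10 passed (limma, with 1 of 10 at an unadjusted p under 0.05, against 28.8% of all genes). Tubule markers were counted too: 5 of 8 proximal tubule markers fell and 1 rose, and 2 of 4 thick ascending limb markers fell. The summed proximal tubule level was 8.49 to 8.63 in Sham and 8.14 to 8.29 in DKD. For the thick ascending limb it was 6.91 to 7.17 in Sham and 5.82 to 6.77 in DKD. The part of tubule markers in the falls of the members was not tested.

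Leukocyte markers were called higher in 4 of 10 cases. The brightest of them, Lyz2, rose by 0.57 ± 0.16 (adjusted p = 0.0172), and Itgb2 and Csf1r, named after their values were seen, rose by 0.59 and 0.43 (adjusted p = 0.00992 and 0.0433). The fourth, Cd163, was not well above background on any Sham array and so met the filter only through diabetic rats. It is counted as a call, and no rise is read from it. Over the 10 leukocyte markers, Cd163 included, 9 differences were positive and 1 was negative (-0.44), with a median of 0.41. The summed level of the 10 leukocyte markers was 4.78 to 5.13 in Sham and 4.96 to 5.62 in DKD. Adipocyte markers rose in 3 of 7 cases (Fabp4, Cfd and Lep, named after their values were seen), and their summed level was 1.62 to 2.13 in Sham against 4.02 and 4.29 in DKD replicates 2 and 4 and 2.14 to 2.73 in the other DKD rats. Without those 2 arrays Dcn differed by 0.77 and Tgfb2 by 1.39 (adjusted p = 0.0136 for each). The part of fibroblast and leukocyte markers in the rises of Dcn and Tgfb2 was not tested.

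**Figure D4:**
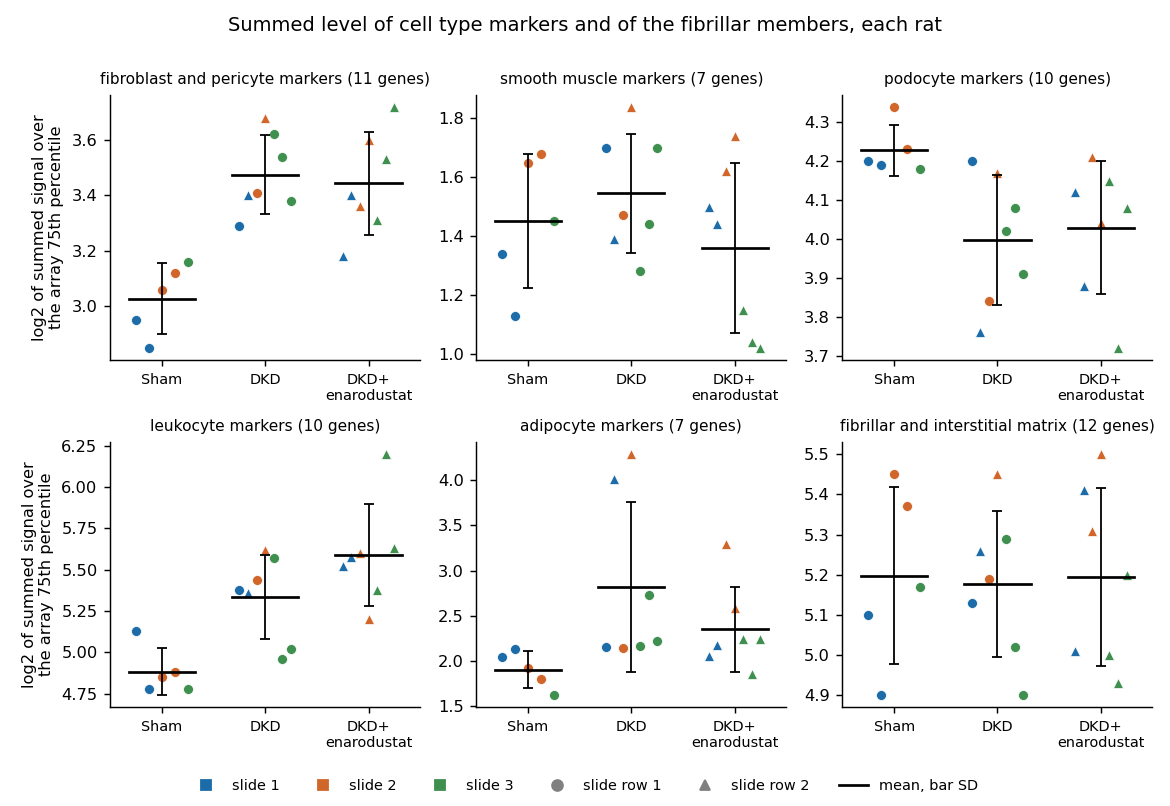
Summed level (y axis, log2 of the summed signal over the array's 75th percentile) of 5 cell type marker lists and of the 12 fibrillar and interstitial members in each rat, with colour for slide, circles for slide row 1, triangles for row 2, a line for the mean and a bar for the SD. Fibroblast and pericyte markers lie above the Sham range in all 7 DKD rats, while the summed fibrillar members span 4.90 to 5.45 in both Sham and DKD.

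Within groups, levels of most matrix members were highest on slide 2. Relative to the group means, slide 2 had the highest mean for all 12 fibrillar and interstitial members, 7 of 9 basement membrane genes, 3 of 4 turnover genes and 2 of 8 TGF-beta signal genes, against 34.3% of all genes. The median deviation of the 12 fibrillar members was -0.09, 0.22 and -0.13 on slides 1, 2 and 3, and for all genes it was 0.02, -0.02 and 0.02. Col3a1 deviated by -0.15, 0.44 and -0.25. Slide accounted for a median of 38.4% of the within-group variance of the 12, from 3.76% for Fn1 to 54.1% for Col3a1, against a median of 25.8% over all genes. For the basement membrane genes the median was 32.2%, from 2.85% for Nid2 to 88.0% for Lama5. The slide pattern is a description of these arrays, and rats on a slide share their hybridisation.

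Beyond the members, lists of further matrix and TGF-beta genes were examined. Their calls are given as counts, with some genes named, beside 17.1% of all genes called in DKD against Sham (8.02% higher and 9.07% lower). Other fibrillar and interstitial genes numbered 28, of which 7 rose and 2 fell; their median difference was 0.36. They included Prelp, a leucine-rich proteoglycan related to decorin, up by 0.56 ± 0.10 (adjusted p = 0.000704), and Bmp1, the procollagen C-proteinase, up by 0.77 ± 0.15 (adjusted p = 0.00184). The microfibril gene Fbn2 fell by 0.96 ± 0.17 (adjusted p = 0.000833).

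Other basement membrane genes were split, with 2 of 13 up and 2 down, where 8.02% of all genes rose and 9.07% fell. Col4a6, a collagen IV chain outside the glomerular trimer, rose by 0.48 ± 0.12 (adjusted p = 0.0109). The laminin chains Lamc3 and Lama2 fell by 1.18 ± 0.23 (adjusted p = 0.00153) and 0.40 ± 0.12 (adjusted p = 0.0361), the latter named after its value was seen. Col4a5, the third chain of the glomerular trimer, was not analysed here.

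Of 20 other turnover genes, 4 rose and 2 fell, where 8.02% of all genes rose and 9.07% fell. The proteoglycanase Adamts15 rose by 0.47 ± 0.10 (adjusted p = 0.00245). Timp1 and Plat, named after their values were seen, rose by 0.93 and 0.23 (adjusted p = 0.00652 and 0.0359). Mmp9, gelatinase B, is counted among the falls. It was above background on all 5 Sham, 1 of 7 DKD and 0 of 7 DKD+enarodustat arrays. The Sham arrays, where it was higher, carried it past the filter, so no size or p-value is given. Mep1a, a brush border meprin named after its value was seen, fell by 0.48 (adjusted p = 0.0168). Timp1 and Timp3, inhibitors of the same enzyme family, moved in opposite directions.

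TGF-beta and BMP signal genes beyond the members gave 4 rises and 4 falls among 35, with a median of 0.00. Over all genes 8.02% rose and 9.07% fell, and these shares also stand beside the receptor counts below. Skil (SnoN) and Smad7, inhibitors that TGF-beta induces, fell by 0.95 ± 0.10 (adjusted p = 3.31e-06) and 0.86 ± 0.12 (adjusted p = 0.000127), while the SMAD corepressor Tgif1 rose by 0.74 ± 0.13 (adjusted p = 0.000727). Of the other inhibitors on the list, 4 that did not pass were Ski (-0.18), Smurf1 (-0.19), Smurf2 (-0.04) and Smad6 (0.08). For Ski every DKD rat lay below every Sham rat, as for 5.83% of all genes. Named after their values were seen, the BMP antagonist Grem1 rose by 0.97, Bmp2 by 0.46 and Bmp6 by 0.53, and the decoy receptor Bambi and the receptor Acvr1 fell by 0.39 and 0.81. Among 16 matrix receptors, 4 rose and 3 fell. The hyaluronan receptor Cd44 rose by 1.16 ± 0.20 (adjusted p = 0.000558) and the dystroglycan Dag1 by 0.26 ± 0.05 (adjusted p = 0.00195), and the collagen receptor Ddr2 fell by 0.72 ± 0.09 (adjusted p = 2.02e-05).

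To see what enarodustat feed changed, treated and untreated diabetic rats were compared. None of the 33 members passed (limma, with 2 of 33 at an unadjusted p under 0.05), against 2.00% of all genes called and 13.7% at an unadjusted p under 0.05. Differences ran from -0.44 (Thbs1) to 0.28 (Lama5), with a median of -0.06, and -0.02 over all genes. For 32 of the 33 the 95% interval lay within 1 log2 unit of 0, and for 23 within 0.5. The groups overlapped for all 33 members, while 1.25% of all genes had groups that did not overlap.

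For those 6 genes the interval of the drug difference is given in turn. Dcn differed by -0.06 (-0.41 to 0.29), and the treated rats ran from 1.21 to 2.37 with a median of 1.66. Tgfb2 differed by -0.16 (-0.74 to 0.43), with treated rats between -2.90 and -1.19. Col4a3 differed by 0.13 (-0.25 to 0.52) and Col4a4 by -0.27 (-0.55 to 0.01), and neither passed. Their signs changed with the setting: with slide row as a covariate Col4a3 differed by 0.30 and Col4a4 by 0.05, and within slide 3 Col4a3 differed by -0.18 and Col4a4 by -0.39. Treated levels of Col4a4 lay between -1.20 and -0.59, all below the Sham range.

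Nid1 differed by 0.23 (-0.15 to 0.61). Its treated rats were more spread (SD 0.43) than the DKD rats (SD 0.08): replicates 2 and 4, at 1.02 and 1.47, lay within the Sham range, and the other 5 lay between 0.28 and 0.76. Timp3 differed by 0.13 (-0.07 to 0.32). The fibrosis transcripts Col1a1 (-0.11, -0.52 to 0.30), Fn1 (0.06, -0.23 to 0.34), Tgfb1 (-0.06, -0.31 to 0.20) and Acta2 (-0.21, -0.58 to 0.16) did not pass either.

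Lama5 and Tgfbr1 were the genes with an unadjusted p under 0.05. Lama5 ran from -0.47 to 0.03 in DKD (median -0.41) and from -0.29 to 0.32 in DKD+enarodustat (median -0.07), with overlapping groups. It differed by 0.28 ± 0.12 (SE, adjusted p = 0.289). With the replicate number as a block it passed (0.28, adjusted p = 0.0159), as it did with slide as a block (0.28, adjusted p = 0.00487) and in the authors' deposited value table (0.24, adjusted p = 0.00150). Within slides 1, 2 and 3 the difference was 0.25, 0.34 and 0.26. With slide row as a covariate it was 0.25 (adjusted p = 0.803), and its second probe gave 0.15.

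Tgfbr1, the type I receptor kinase, ran from -0.43 to -0.25 in DKD and from -0.61 to -0.17 in DKD+enarodustat. It differed by -0.18 ± 0.08 (SE, adjusted p = 0.269), and its second probe gave 0.14 with the opposite sign. None of the 5 further matrix and TGF-beta lists held a gene that passed in this comparison, at unadjusted counts of 4 of 28 (fibrillar), 1 of 13 (basement membrane), 2 of 20 (turnover), 3 of 35 (TGF-beta and BMP) and 2 of 16 (receptors). Arrays of the compared groups lay mostly in different slide rows, so row and drug are separated only by DKD replicates 2 and 4. Those are the 2 arrays with adipocyte marker levels of 4.02 and 4.29, against 1.86 to 3.29 in the treated rats. Their mean was also above that of the other DKD arrays by 0.79 for Mmp2, 0.55 for Col3a1 and 0.52 for Mmp14, and for Col4a4 it differed by -0.46 (-1.02 against -0.56). Drug differences adjusted for row, those of Lama5 and Col4a4 included, rest on these arrays, and the part of the adipocyte markers in them was not tested.

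Set against Sham, the DKD+enarodustat rats share their controls with the first comparison, and values are given side by side. Of the 33 members 9 passed, against 26.1% of all genes. Groups did not overlap for Col4a4 and Timp3, both lower than Sham in every treated rat (8.87% of all genes). The differences from Sham in DKD and in DKD+enarodustat were 0.88 and 0.81 for Dcn, 1.32 and 1.16 for Tgfb2, -1.26 and -1.53 for Col4a4, -0.83 and -0.70 for Col4a3, -0.93 and -0.70 for Nid1, and -0.45 and -0.32 for Timp3. In DKD+enarodustat Fn1 (0.45, adjusted p = 0.0325), Lama5 (0.44, adjusted p = 0.0169) and Tgfbr1 (-0.30, adjusted p = 0.0111) also passed, and with the replicate number as a block Col6a2 did (0.52, adjusted p = 0.0122). The call of Fn1 was lost in 7 of the 12 fits that left out 1 rat of these groups (Sham replicates 1, 2, 4 or 5, or DKD+enarodustat replicates 2, 4 or 7), with adjusted p up to 0.0814. Those of Lama5 and Timp3 were lost without Sham replicate 1 (adjusted p = 0.0521 and 0.0603), that of Timp3 also without Sham replicate 5 (adjusted p = 0.0821), and that of Nid1 without Sham replicate 3 (adjusted p = 0.0501). The Lama5 call was also lost with the mean of its kept probes (0.32, adjusted p = 0.086) and with the array median as centre (0.41, adjusted p = 0.059). That of Nid1 was lost with only the groups compared (-0.70, adjusted p = 0.057). The second Tgfbr1 probe gave -0.26 in DKD minus Sham and 0.14 in DKD+enarodustat minus DKD. The Sham and DKD+enarodustat arrays shared no slide row. With row as a covariate 1 member still passed, Col4a4 (-1.07, adjusted p = 0.0113).

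**Figure D5:**
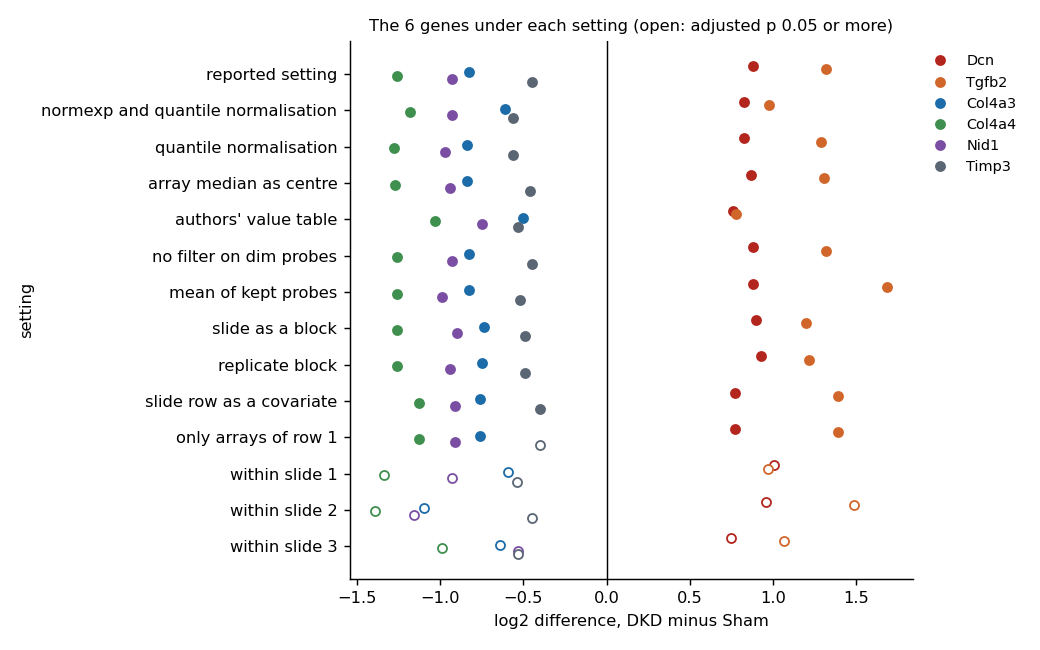
Log2 difference of the 6 called genes in DKD minus Sham (x axis) under the reported setting and 13 alternatives (y axis), with filled points for an adjusted p under 0.05 and open points otherwise. Each gene stays on its side of 0 in all of them, and the points are open within single slides and, for Timp3, with arrays of row 1 alone.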

How the data were processed

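The deposited scanner files give spot intensity in the Cy3 channel. Per the file headers, Agilent Feature Extraction (version 11.5.1.1) subtracted background and detrended each array, and set signal at background to surrogate values. The authors' deposited value table holds log2 expression for 22739 probes; its method and centring are not given in the sources used here. The submitters' processing notes also name limma.

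Log2 of the processed intensity minus each array's 75th percentile was used. Probes well above background on at least 5 of 19 arrays were kept, and the brightest kept probe stood for a gene. Other genes were named through RefSeq accessions (GRCr8, names only) where an accession matched. The rest were named through another probe of the same gene name or kept the array's own name. Of 45598 probes, 21109 were named by accession, 1977 through another probe and 22512 by the array's own name. Per the file headers, probe coordinates refer to rn4. All 3 groups were fitted together with limma 3.58.1 (R 4.3.3) without covariates. Errors are standard errors of that fit, and two-sided p-values were adjusted over 24217 genes with the Benjamini-Hochberg method. The number of arrays limits the precision. The fit was run on simulated data with independent noise and no slide or row pattern, so that run cannot speak for the slide pattern of these arrays.

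Members and lists were chosen with earlier results of these data known, so no list was tested. Members past the threshold are given with sample values; from each further list the 3 genes of smallest adjusted p, and from each marker list the 3 brightest, were named, except a few that are not reported here. Same-numbered rats lay on the same slide in all 3 groups, and their deviations from the group means correlated at 0.13 to 0.59 in all 17 pairs, so the replicate number was also used as a block. Normalisation, filter, probe choice, slide, slide row, replicate block and left-out replicates were varied.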

Additional observations from a re-analysis of the deposited data

Results flagged for a closer look

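Dixon's test at 95% marked 3 of 99 groups of member values, and chance alone marks about 1 group in 20. Col5a1, a minor fibrillar collagen chain, was low in DKD replicate 7, at -1.76, with the nearest other DKD rat at -1.51 and the highest at -1.34. Tgfbr1 was high in DKD+enarodustat replicate 6, at -0.17, while the other 6 treated rats lay between -0.61 and -0.48. Pdgfrb was high in DKD+enarodustat replicate 4, at -0.54, with the others between -1.18 and -0.92. Postn, the fibrosis-associated matricellular protein periostin, was left out of the tests as too dim and was well above background on 1 of 19 arrays, DKD replicate 2, at -5.95.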

How the results depend on the processing

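Each member kept its direction wherever it passed, under every alternative run. The 6 members called in DKD against Sham stayed called outside single slides, except Timp3 with arrays of row 1 alone. Leaving out each replicate gave 6 to 7 members (Fn1 joined without DKD replicate 1), and 3156 to 3987 genes. The authors' value table called 10 members, adding Col6a2, Fn1, Sparc and Lama5. Within slides 1, 2 and 3 DKD against Sham gave 0, 2 and 142 genes and 0, 0 and 0 members. Both normalisations by quantiles moved the split of calls: 1943 higher and 2197 lower became 1590 and 2990 with normexp and quantile normalisation, and 1556 and 2655 with quantile normalisation alone; the members' split stayed 2 and 4 in both.

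For DKD+enarodustat against DKD the 485 calls became 291 with the array median as centre, 1770 in the authors' value table, 284 with no filter, 915 with slide as a block, 84 with slide row as a covariate, 12 with row 2 alone, 276 with only the groups compared, and 1, 0 and 0 within slides 1, 2 and 3. Leaving out a replicate gave 286 (without DKD replicate 6) to 497 genes and 0 to 0 members. In the authors' value table, with slide as a block and with the replicate block, 1 member passed each, Lama5. The split of 259 higher and 226 lower was 207 and 77 with no filter, 609 and 1161 in the authors' table and 54 and 30 with row as a covariate.

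For DKD+enarodustat against Sham the 6311 calls became 10738 with no filter, 1031 with slide row as a covariate, and 14, 46 and 338 within slides 1, 2 and 3; members went from 9 to 1 with row and to 0, 0 and 0 within slides. Leaving out a replicate gave 5175 to 6513 genes and 6 to 10 members. The split of 2429 higher and 3882 lower was 6916 and 3822 with no filter and 501 and 530 with row as a covariate. Within slides and with row 2 alone fewer arrays were fitted; for the other changes the cause was not tested.

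With the replicate block 4555, 644 and 7138 genes and 8, 1 and 10 members passed in the 3 comparisons. Beside Col6a2 and Lama5, whose blocked values stand with the results, it changed no other member's call. Signal over background limits what Lum, Postn and Thbs1 can show.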
